A study of Mus musculus with 4 samples.

Results

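The ABC transporter genes of subfamilies A to G were measured in cultured mouse germline stem cells after 48 hours of 4-hydroxytamoxifen or DMSO. The members are the 50 genes whose symbol in the scanner files starts with Abc, a letter from a to g and a digit, which took 98 of the 41174 probes and 50 of the 27370 genes or named features on the array. They were chosen because Abcg5 and Abcb1b were higher after 4-hydroxytamoxifen, so the differences of the members between the groups are given as a description and support nothing. A member was sorted as higher, lower or not passed by a limma fit of all 17537 features kept, at an adjusted p of 0.05, and no p is given for a single member.

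Germline stem cells are spermatogonial stem cells of the mouse testis kept in culture. Total RNA was measured on 2 arrays after DMSO, the solvent control, and on 2 arrays after 4-hydroxytamoxifen. The cells of both groups carried a Cre recombinase fused to an oestrogen receptor domain at the Rosa locus, which the compound activates, and the construct CAG-CAT-3FlagNanos2-pA, which then expresses tagged Nanos2, an RNA-binding protein of undifferentiated spermatogonia. Both groups grew on mitomycin-C-treated embryonic fibroblasts of C57Bl6 mice taken at day 13.5, with GDNF, EGF and FGF2, and feeder cells were removed before RNA was extracted. No group took the compound without the construct, so what Nanos2, the recombinase and the compound each did cannot be told apart. The labels do not say whether the arrays of a group came from separate cultures.

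ABC proteins bind ATP at paired cassettes and use it to move lipids, sterols, drugs, bile salts, peptides, porphyrins or ions across membranes. Members of the A and G subfamilies move mostly lipids and sterols, members of B and C include the drug efflux pumps, and members of D sit mainly in the peroxisomal membrane. Members of E and F have the cassettes without a membrane domain and act on ribosomes and translation. In stem cells of several tissues, including blood, drug and dye efflux by Abcb1 and Abcg2 proteins has been used to sort cells.

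Sequences are shown for neighbours of which only one was well above background, Abcg5 beside Abcg8 and Abcb1b beside Abcb1a. The first run is the stretch of 109 bases between the RefSeq starts of Abcg5, on the minus strand, and of Abcg8, on the plus strand (GRCm38.p6, chr17:84683012-84683120, read on the plus strand). RefSeq lists a further start for Abcg8 outside this stretch. The other runs are the 250 bases before the starts of Abcb1a (GRCm38.p6, chr5:8566841-8567090) and Abcb1b (GRCm38.p6, chr5:8797897-8798146), both on the plus strand. Capitals mark a TATA box or a GC box, whose letters are given below, or the letters CCAAT, each searched on both strands.
Abcg5-Abcg8 interval: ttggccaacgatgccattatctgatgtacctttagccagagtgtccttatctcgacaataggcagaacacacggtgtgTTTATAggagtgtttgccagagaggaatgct
Abcb1a upstream: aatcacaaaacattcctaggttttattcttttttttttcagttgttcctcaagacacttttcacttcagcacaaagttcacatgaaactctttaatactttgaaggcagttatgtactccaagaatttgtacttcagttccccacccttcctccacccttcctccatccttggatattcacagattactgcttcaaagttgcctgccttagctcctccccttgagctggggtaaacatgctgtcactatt
Abcb1b upstream: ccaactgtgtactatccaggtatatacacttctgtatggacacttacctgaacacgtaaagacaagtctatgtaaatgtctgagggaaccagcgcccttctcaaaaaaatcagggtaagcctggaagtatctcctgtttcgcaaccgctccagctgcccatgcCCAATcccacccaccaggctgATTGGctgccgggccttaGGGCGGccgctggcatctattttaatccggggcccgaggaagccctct
Counted from the first printed base, the interval held a TATA box (TATAAA) on the minus strand, that of Abcg5, at bases 79 to 84. The Abcb1b stretch held a CCAAT box on the plus strand at bases 164 to 168, another on the minus strand at bases 185 to 189, and a GC box (GGGCGG) on the plus strand at bases 203 to 208. None of these letters was found in the Abcb1a stretch. A match or its absence describes only these letters in these windows.

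Further runs are 60-base probes of the array for the same chromosome neighbourhoods, at coordinates of mm9 as the files give them. The Abcb1b probe lies at chr5:8861441-8861500, the Abcb4 probe at chr5:8959108-8959167 and the Abcg8 probe at chr17:85094401-85094460. They show the stretch of transcript that each signal below reports on, and they have no capitals because no motif was searched in them.
Abcb1b probe: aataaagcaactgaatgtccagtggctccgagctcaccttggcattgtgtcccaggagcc
Abcb4 probe: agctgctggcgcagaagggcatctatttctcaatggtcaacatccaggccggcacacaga
Abcg8 probe: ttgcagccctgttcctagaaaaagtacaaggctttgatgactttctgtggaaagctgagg

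The arrays held signals well above background for between 61.5% and 65.3% of probes, with no saturated spot. The correlation over features was 0.996 between the DMSO arrays, 0.997 between the 4-hydroxytamoxifen arrays and 0.948 to 0.954 across the groups. Nanos2 read 345 and 341 after DMSO and 930 and 1100 after 4-hydroxytamoxifen, a log2 difference of 1.56 ± 0.10 (SE, n = 2 arrays per group, limma adjusted p = 0.000842). Of 15 germline stem cell markers tested among 16 listed, 13 were lower and 0 higher (Zbtb16 was not tested), and their summed signal was 68100 to 69700 after DMSO and 40600 to 41600 after 4-hydroxytamoxifen. Sums of markers weigh the brightest probes most, here Ddx4 (not passed, 21400 to 23300 after DMSO) and Dazl (lower, 21300 and 21700 after DMSO). Of 22 fibroblast markers, 21 were higher and 0 lower, with sums of 213000 to 248000 and 404000 to 429000. S100a4 was the brightest of them, with 68600 and 82200 after DMSO and 156000 and 147000 after 4-hydroxytamoxifen. Macrophage and endothelial markers were higher in 10 of 14 tested and lower in 0, of 17 listed, with sums of 12200 to 13500 and 26600 to 27200, and Itgam, Cdh5 and Tie1 did not pass the filter on dim signals. Lyz2 made up most of these sums, with 10700 and 12100 after DMSO and 23800 and 24400 after 4-hydroxytamoxifen. Sertoli and Leydig markers were higher in 5 and lower in 2 of 8 tested, of 13 listed, with sums of 3940 to 4370 and 8470 to 8940, and Amh, Gata4, Cyp11a1 and Hsd3b1 did not pass the filter on dim signals, and Insl3 was not measured under this name. For comparison with these counts, 40.5% of all features were higher and 29% lower, 69.5% in all. These markers moved with every difference given here, and their part in it was not tested. In bulk RNA, fewer cells of a type and less RNA per cell cannot be told apart.

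Of the 50 ABC genes, 33 passed the filter on dim signals (a probe well above background on 2 or more arrays) and were tested. Of these, 16 were higher after 4-hydroxytamoxifen, 7 were lower and 10 did not pass. Over all 17537 features, 40.5% were higher and 29% lower, 69.5% in all, and nothing is read from the members' counts because this contrast chose them. Among all calls, 58.3% were higher, and 46.7% were when arrays were scaled on their median, under which 12 members were higher and 10 lower. The members' median log2 difference was 0.23, also with dim genes at their bound, and that of all features was 0.12. Median scaling moved the median of all features to -0.06 and that of the members to 0.05. Fitted differences of at least 2-fold were called higher in 8 members (16.3% of all features) and lower in 1 (8.05%). Of these, Abcc9 (higher) and Abcd2 (lower) were dim in one of the groups and have only bounds, of 1.36-fold and 1.32-fold. Values did not overlap between the groups in 30 of the 33 members, against 86.5% of features.

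**Figure D1:**
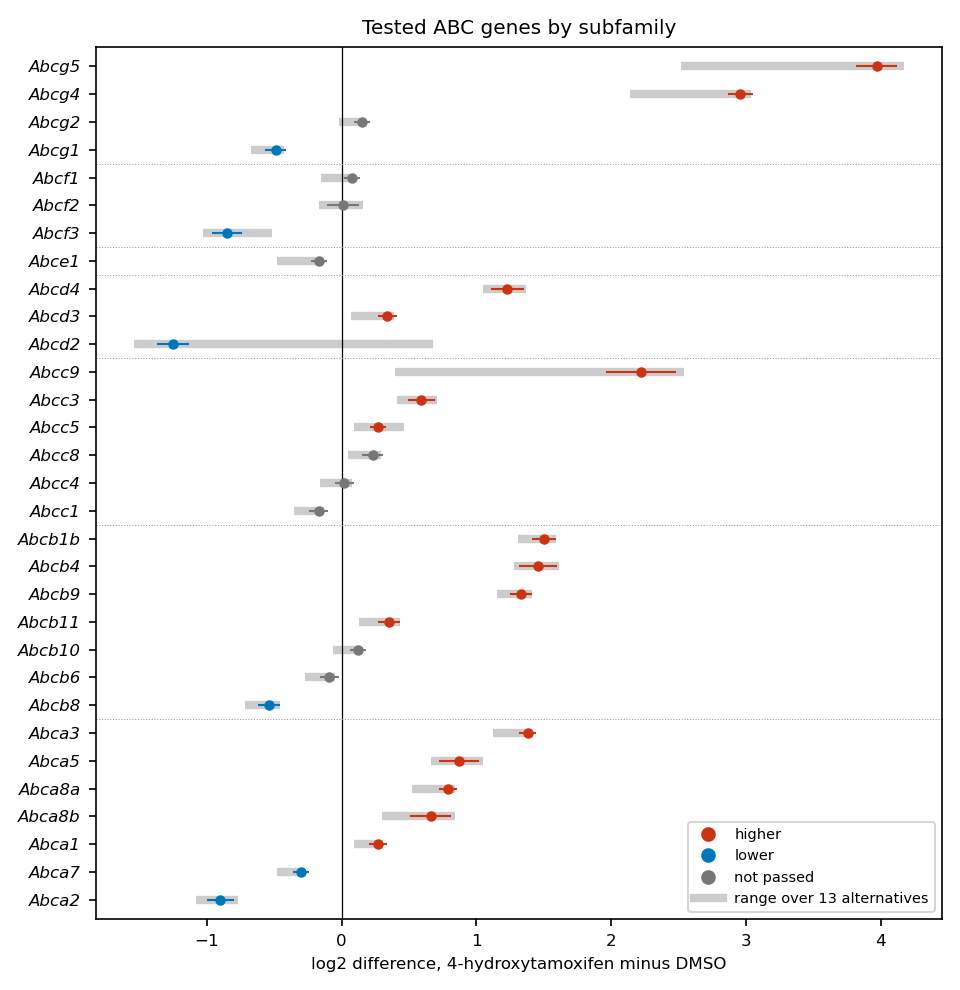
Log2 difference, 4-hydroxytamoxifen minus DMSO, for 31 of the 33 tested ABC genes, grouped by subfamily from A at the bottom to G at the top; points are the fit's values, thin bars ± 1 SE (n = 2 arrays per group), grey bars the range over 13 alternative settings, and colours the calls. Abcg5 at 3.97 and Abcg4 at 2.96 lie farthest to the right, and the grey bars of Abcd2 and Abcc9, genes not well above background in one of the groups, are wide.

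The G subfamily, whose members move sterols and other lipids, held the members with the largest differences. Abcg5, which pairs with Abcg8 to pump plant sterols and cholesterol into bile and gut, read 36.5 and 27.7 on the DMSO arrays and 486 and 514 on the 4-hydroxytamoxifen arrays (all signals are scaled to a common 75th percentile of 696). Both 4-hydroxytamoxifen arrays stood above both DMSO arrays, by 15.7-fold on average, from 31.8 to 500. The log2 difference was 3.97 ± 0.15 (SE, n = 2 arrays per group), and 2.52 after normexp background correction. The DMSO signals of Abcg5 lay not far above the lowest signals well above background, 15.4 to 20.0. The size of its difference therefore depended on the background correction. The array has 1 probe for Abcg5, at chr17:85057604-85057663 of mm9 on the minus strand.

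Abcg8, the partner without which Abcg5 does not reach the cell surface, was not well above background on any of the 4 arrays. Its probe printed above read 3.66 and 4.11 after DMSO and 3.52 and 4.79 after 4-hydroxytamoxifen. The second Abcg8 probe read 3.63 and 4.03 after DMSO and 3.49 and 4.73 after 4-hydroxytamoxifen. Signals well above background started at 15.4 to 20.0 depending on the array, so both probes give only an upper bound and no direction. The Abcg5 and Abcg8 probes span 41.2 kb, and the starts of the genes face away from each other across the interval printed above.

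Abcg4, a sterol transporter known mainly from brain, read 58.3 and 65.9 after DMSO and 467 and 495 after 4-hydroxytamoxifen. The groups did not overlap, and the log2 difference was 2.96 ± 0.09 (SE, n = 2 arrays per group), or 7.76-fold, and 2.14 after normexp background correction. Its only probe lies at chr9:44081397-44081456 of mm9 on the minus strand. Abcg1, a close relative of Abcg4 that loads cholesterol onto high-density lipoprotein, went the other way, with 1870 and 1710 after DMSO and 1310 and 1230 after 4-hydroxytamoxifen. Its log2 difference was -0.49 ± 0.08, and the groups did not overlap. Abcg2, the efflux pump behind the side population of stem cells, did not pass with either probe, at log2 differences of 0.15 and 0.14. Abcg3 was not well above background on any array.

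**Figure D2:**
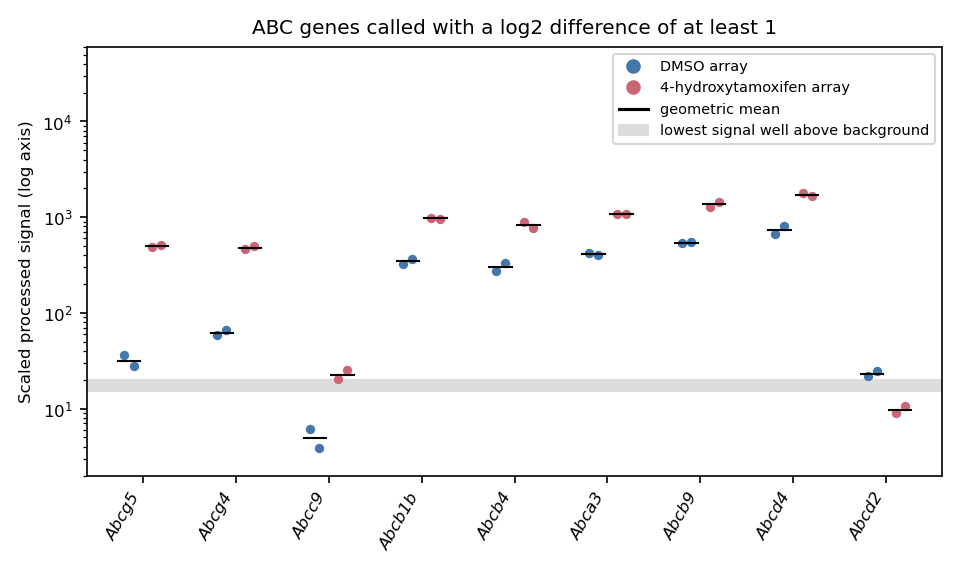
Scaled processed signal on a log axis for the 9 ABC genes called with a log2 difference of at least 1 in size, one dot per array (blue, DMSO; red, 4-hydroxytamoxifen), lines for geometric means and a grey band for the lowest signal well above background on each array. The groups do not overlap for any of the 9; Abcc9 lies under the band after DMSO and Abcd2 under it after 4-hydroxytamoxifen, and levels of different genes are not comparable because each probe binds differently.

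In the B subfamily, the genes next to each other on chromosome 5 differed in whether they were detected. Abcb1b, which encodes a P-glycoprotein that expels drugs from cells, read 324 and 368 after DMSO and 986 and 964 after 4-hydroxytamoxifen. Both 4-hydroxytamoxifen arrays were above both DMSO arrays, with a log2 difference of 1.50 ± 0.09 (SE, n = 2 arrays per group), or 2.82-fold, at chr5:8865925-8865984 of mm9. The probe printed above read 74.9 and 82.9 after DMSO and 219 and 193 after 4-hydroxytamoxifen, a difference of 1.38 ± 0.10. The remaining Abcb1b probe was not well above background on any array, with 3.32 and 3.98 after DMSO and 10.7 and 9.19 after 4-hydroxytamoxifen.

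Abcb1a, the other P-glycoprotein gene of the mouse and a close copy of Abcb1b, read 3.73 and 8.30 after DMSO and 16.6 and 12.3 after 4-hydroxytamoxifen and was not well above background on any array. Its values therefore have no order. Abcb4, the flippase that brings phosphatidylcholine into bile, read 272 and 331 after DMSO and 892 and 768 after 4-hydroxytamoxifen with the probe printed above. The groups did not overlap, and the log2 difference was 1.46 ± 0.14 (SE, n = 2 arrays per group), or 2.76-fold. A second Abcb4 probe was not well above background, with signals of 3.46 to 4.71. Whether a probe of one of these related genes also binds RNA of another was not tested.

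Abcb9, a peptide transporter of the lysosome, read 533 and 548 after DMSO and 1290 and 1430 after 4-hydroxytamoxifen, with no overlap, a difference of 1.33 ± 0.08 and a ratio of 2.52-fold. Abcb11, the bile salt export pump, read 27.3 and 30.8 after DMSO and 36.7 and 37.0 after 4-hydroxytamoxifen. These signals lay just above the background limit, and the difference was 0.35 ± 0.08. The B members that work mainly in mitochondria were lower or did not pass. Of all features, 40.5% were higher and 29% lower, and nothing is read from the calls of these few genes. Abcb8 was at -0.54 ± 0.08, with signals of 525 to 551 after DMSO and 352 to 390 after 4-hydroxytamoxifen. Abcb10, needed for haem formation in red cell precursors, was at 0.12 and -0.10 with its probes, and Abcb6, which has been placed in porphyrin transport, was at -0.09; none of these passed. Abcb5 was not well above background.

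**Figure D3:**
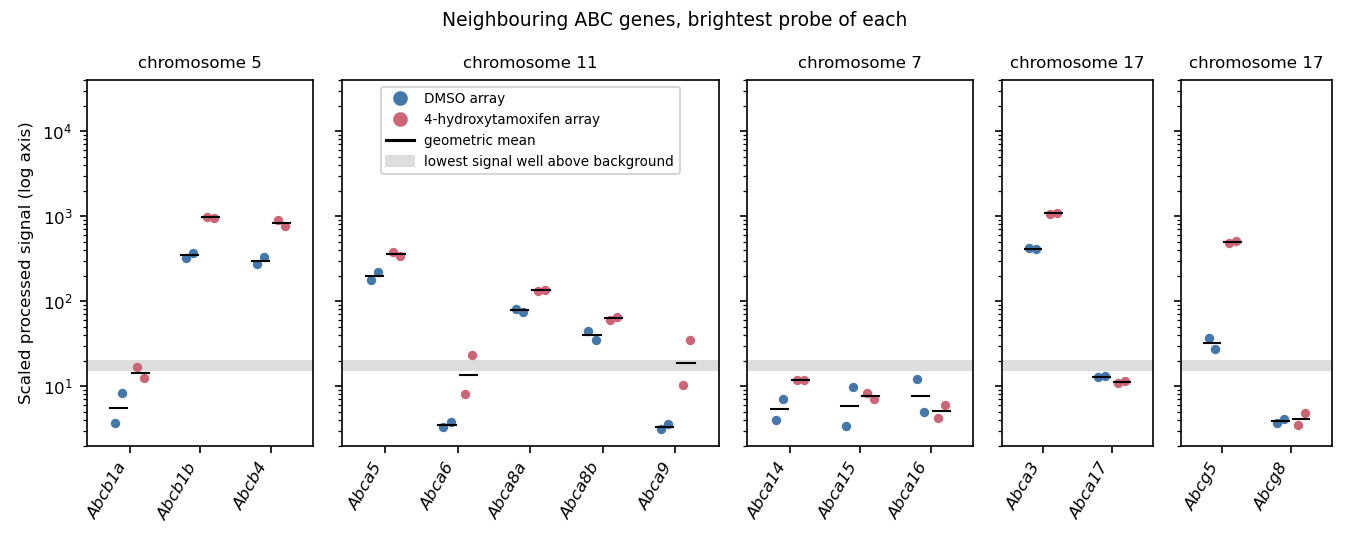
Scaled processed signal on a log axis for ABC genes that lie side by side, the brightest probe of each, one dot per array, lines for geometric means and a grey band for the lowest signal well above background. Abcb1a, Abcg8, Abca17 and all 3 genes of the chromosome 7 group lie at or under the band on all 4 arrays, while Abcb1b, Abcb4, Abca3 and Abcg5 lie above it.

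Of the A subfamily, 7 of 16 genes were tested, with 5 higher and 2 lower. Among all features 40.5% were higher and 29% lower, and nothing is read from the counts of a subfamily. Abca3, which loads surfactant lipid into lamellar bodies of the lung, read 420 and 406 after DMSO and 1070 and 1080 after 4-hydroxytamoxifen. The groups did not overlap, and the log2 difference was 1.38 ± 0.06 (SE, n = 2 arrays per group), or 2.61-fold. A second Abca3 probe gave 0.86, with 408 and 418 after DMSO and 760 and 740 after 4-hydroxytamoxifen. The remaining probes of Abca3 were not well above background. Abca17, which lies 63.9 kb away at most by the probes' positions, read 12.7 and 13.2 after DMSO and 11 and 11.4 after 4-hydroxytamoxifen and was not well above background on any array.

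The Abca5, Abca6, Abca8a, Abca8b and Abca9 probes span 390 kb of chromosome 11. Abca5, a lipid transporter of the endosome and lysosome, read 175 and 222 after DMSO and 382 and 338 after 4-hydroxytamoxifen, a difference of 0.87 ± 0.15, and further probes gave 1.04 and 1.13. Another kept Abca5 probe, with 15.5 and 11.2 after DMSO, was not well above background there and was at least 1.78-fold higher. Abca8a was at 0.79 ± 0.07, with 81.2 and 74.9 after DMSO and 132 and 137 after 4-hydroxytamoxifen, and 0.52 after normexp background correction. Abca8b was at 0.66 ± 0.15, with 44.8 and 35.1 after DMSO and 59.6 and 65.8 after 4-hydroxytamoxifen, and 0.30 after the same correction. All 3 were higher with no overlap between the groups. A probe of Abca6 (8 and 23 after 4-hydroxytamoxifen) and a probe of Abca9 (10.2 and 34.8 after 4-hydroxytamoxifen) were well above background on 1 array each, the second 4-hydroxytamoxifen array, and neither gene was tested.

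Abca1, which moves cholesterol and phospholipid onto apolipoprotein A-I, read 2050 and 2160 after DMSO and 2550 and 2520 after 4-hydroxytamoxifen, a small difference of 0.27 ± 0.07 and 0.09 under median scaling. Abca2, a lipid transporter of the late endosome known from myelin-forming cells, read 604 and 563 after DMSO and 290 and 335 after 4-hydroxytamoxifen. Its probes gave -0.90 ± 0.10 and -1.20, both lower with no overlap. Abca7, a phospholipid transporter linked to phagocytosis, was at -0.30 ± 0.06, with 10000 and 10400 after DMSO and 8400 and 8160 after 4-hydroxytamoxifen. Abca14, Abca15 and Abca16, a cluster of rodent genes described in testis, gave signals of 3.30 to 13.2 and were not well above background on any array.

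Of the C subfamily, which holds the multidrug resistance proteins and the sulfonylurea receptors, 6 of 10 genes were tested, with 3 higher and 0 lower. The shares of all features were 40.5% higher and 29% lower. Abcc9, a sulfonylurea receptor that forms potassium channels with Kcnj8, read 6.11 and 3.91 after DMSO, not well above background, and 20.4 and 25.3 after 4-hydroxytamoxifen. It was at least 1.36-fold higher, a bound set by the background, and its other probes were not well above background. The fitted log2 difference of 2.22 ± 0.26 is no measure of size, and it was 0.40 after normexp background correction. Abcc8, the sulfonylurea receptor of the pancreatic beta cell, did not pass at 0.23, with 2160 and 2020 after DMSO and 2340 and 2540 after 4-hydroxytamoxifen.

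Abcc3, an exporter of conjugated bile salts, read 212 and 248 after DMSO and 348 and 343 after 4-hydroxytamoxifen, a difference of 0.59 ± 0.10 with no overlap. Abcc5, an exporter of cyclic nucleotides, was at 0.27 ± 0.06 with its brightest probe. A further Abcc5 probe gave 0.92, with 52.9 and 59.1 after DMSO and 111 and 100 after 4-hydroxytamoxifen, and another gave 0.20 and did not pass. Abcc4, which exports cyclic nucleotides and prostaglandins, was at 0.02 with overlapping arrays. Abcc1, which exports glutathione conjugates, did not pass at -0.17 with its brightest probe and was lower with the others, at -0.35 and -0.36. Those other probes overlap each other in position, so they are no separate measurements of the transcript. Abcc2, Abcc6, Abcc10 and Abcc12 were not well above background on any array.

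Of the D subfamily, 4 of 4 genes were tested, with 2 higher, 1 lower and 1 not passed, where 40.5% of all features were higher and 29% lower. Abcd4, which works in the lysosome on the release of cobalamin (vitamin B12), read 662 and 808 after DMSO and 1770 and 1660 after 4-hydroxytamoxifen. The groups did not overlap, and the log2 difference was 1.23 ± 0.12 (SE, n = 2 arrays per group), or 2.34-fold. Abcd2, a peroxisomal importer of very long-chain and polyunsaturated fatty acids, read 21.8 and 24.6 after DMSO and 8.96 and 10.6 after 4-hydroxytamoxifen, the latter not well above background. It was at least 1.32-fold lower by this probe. Another Abcd2 probe read 14.6 and 10.4 after DMSO and 18.5 and 21.3 after 4-hydroxytamoxifen, well above background on 1 array. Without a filter on dim probes that probe stood for Abcd2 and the difference was 0.68, so its direction depended on the probe.

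Abcd3, an abundant protein of the peroxisomal membrane, was at 0.34 ± 0.07 with its brightest probe and did not pass at -0.04 and -0.09 with its others, and the mean of the probes was 0.07.

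The E and F members, which act on ribosomes, were all tested, and Abcf3 was lower while the others did not pass. Among all features 40.5% were higher and 29% lower, and nothing is read from the counts of so few genes. Abce1, which splits ribosomes after termination, did not pass at -0.17 with its brightest probe, with 5130 and 4980 after DMSO and 4460 and 4540 after 4-hydroxytamoxifen. A second Abce1 probe read 153 and 137 after DMSO and 86.0 and 82.1 after 4-hydroxytamoxifen and was lower, at -0.78. Abcf1, which binds initiation factor eIF2, was at 0.08 and -0.38 with its probes, and Abcf2 at 0.01 and -0.08; none passed. Abcf3 read 1450 and 1310 after DMSO and 708 and 828 after 4-hydroxytamoxifen, a difference of -0.85 ± 0.11 with no overlap, and its second probe did not pass at -0.19; the mean of both was at -0.52.

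**Figure D4:**
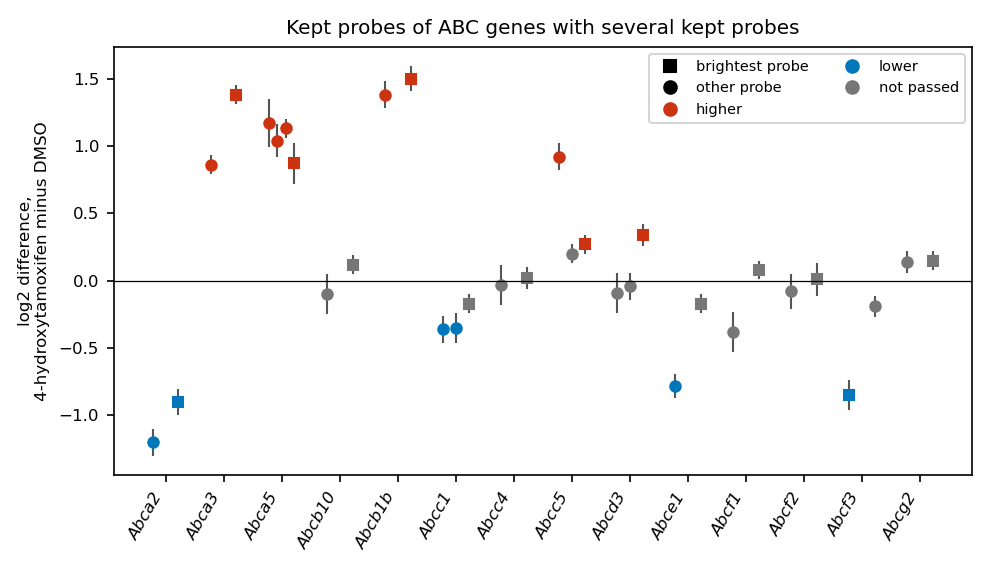
Log2 difference, 4-hydroxytamoxifen minus DMSO, ± SE (n = 2 arrays per group) for each kept probe of 14 of the 15 ABC genes with at least 2 kept probes, squares for the brightest probe that stood for the gene and circles for the others, coloured by call; the leftmost Abca5 probe was dim after DMSO, so its plotted value is no measure of size. The probes of Abca2, Abca3, Abca5 and Abcb1b carry the same call, while those of Abcc1, Abcc5, Abcd3, Abce1 and Abcf3 mix a call with probes that did not pass.

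Of the 98 member probes, 53 were kept, of which 22 were higher, 11 lower and 20 not passed, where 36.4% of all probes tested were higher and 30.8% lower, 67.3% in all. In 6 members at least 2 probes were called, and in 0 of these were they called in opposite directions, against 13.9% of the 3795 such genes on the array. With the mean of probes in place of the brightest, Abcc1 and Abce1 were lower and Abcd3 did not pass. The 17 untested members have 30 probes with signals of 3.11 to 34.8. Of these, 24 were well above background on 0 arrays and 6 on 1 array, in each case a 4-hydroxytamoxifen array, among them the probe of Abca4, the photoreceptor transporter, at 27.2 and 21.5. Abca12, which carries lipid into the skin barrier, and Abca13 also had such probes. How many of all probes were detected on only 1 array of a group was not counted, so nothing is read from this. The first 4-hydroxytamoxifen array had 65.3% of all probes well above background, and the other arrays had 61.5% to 62%.

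Calls of 15 of the 23 called members held under each of the 13 alternatives in which they were tested, among them 8 of the 9 with a fitted log2 difference of at least 1 in size. The deposited table is counted among the 13 but holds the same signals at the same scaling, so its agreement was fixed in advance. Abcc9, one of these, was not tested under the filter that asks for signals well above background on all 4 arrays. Abca1, Abca7, Abca8b, Abcb11, Abcc3, Abcc5, Abcd2 and Abcd3 lost the call under at least 1 alternative. Abcb11 was at 0.13 under quantile normalization, Abcc5 at 0.09 under median scaling, and Abcd2 was at -0.16 after normexp background correction. Without either of the 4-hydroxytamoxifen arrays the calls of Abca1, Abca7, Abca8b, Abcb11 and Abcc5 ended, and without the first that of Abcd3 as well. Without the first DMSO array the calls of Abca1, Abcb11, Abcc5 and Abcd3 ended, and without the second those of Abca7 and Abcc5. Over these fits, in which the lone array is assumed to vary like the other group, the differences ranged from 0.23 to 0.31 (Abca1), -0.33 to -0.27 (Abca7), 0.48 to 0.84 (Abca8b), 0.26 to 0.43 (Abcb11), 0.24 to 0.30 (Abcc5) and 0.28 to 0.39 (Abcd3).

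The pathways that surround the members were described from lists, each with the median of all features at 0.12 for comparison. Of all features, 40.5% were higher and 29% lower, and the counts of each list stand beside these shares. Of 21 genes of sterol efflux and the liver X receptors, which switch on Abca1, Abcg1, Abcg5 and Abcg8, 19 were tested: 9 were higher, 3 lower and 7 not passed, with a median of 0.29. Mylip, which degrades the LDL receptor, was at 1.51 ± 0.08, the receptor gene Nr1h3 at 1.18 ± 0.08 and Smpdl3a at 1.17 ± 0.09. The lower ones were the other liver X receptor gene Nr1h2 at -0.40 ± 0.06, its partner gene Rxrb at -0.82 ± 0.07 and the target gene Srebf1 at -0.37 ± 0.06. Of 20 xenobiotic response genes, 17 were tested: 14 were higher and 3 lower, with a median of 0.55. Cyp1b1 was at 1.25 ± 0.10, Ahrr, the repressor of the aryl hydrocarbon receptor, at 1.20 ± 0.10, and Cyp3a13 at least 1.52-fold higher, as it was not well above background after DMSO. The lower ones were the glutathione synthesis genes Gclm at -1.04 ± 0.08 and Gclc at -0.85 ± 0.06, and Txnrd1.

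Of 18 peroxisomal genes that work beside the D members, 6 were higher, 5 lower and 7 not passed, with a median of -0.09. Pex19, which brings membrane proteins to the peroxisome, was at -0.94 ± 0.06 and the import receptor Pex7 at -0.68 ± 0.07. Of 20 mitochondrial haem and iron-sulphur genes, 4 were higher, 8 lower and 8 not passed, with a median of -0.05. Alad, an early enzyme of haem synthesis, was at -1.51 ± 0.07, and the iron importer Slc25a37 at 1.19 ± 0.13.

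Of 14 genes that are ABC proteins under other symbols or partners of ABC proteins, 13 were tested: 8 were higher, 2 lower and 3 not passed, with a median of 0.61, or 0.56 with dim genes at their bound. Psmb8, an immunoproteasome subunit, was at 1.98 ± 0.13, and Tap2, an ABC protein that feeds peptides to MHC class I, at 1.34 ± 0.17. The 2 lower ones were Psmb9, another immunoproteasome subunit, at -0.99 ± 0.10 and Tapbp at -0.32 ± 0.08. Kcnj8, the channel partner of Abcc9, was at least 1.48-fold higher, with 8.05 and 9.26 after DMSO, not well above background, and 24.1 and 25.3 after 4-hydroxytamoxifen. Of 14 translation partners of the E and F members, 3 were higher, 7 lower and 4 not passed, with a median of -0.07. The eIF2 kinase gene Eif2ak4 was at -0.93 ± 0.08, Eif2s3x at 0.75 ± 0.08 and Hbs1l at 0.65 ± 0.08.

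Promoters of 38 of the 50 members were in the RefSeq table, each 300 bases from 250 before to 50 after the start. They had 45 listed starts, and for each gene only the start nearest the annotated beginning of the gene was used. For Abcg8 this window was chr17:84676052-84676351, which is not at the start that bounds the interval printed above. A GC box (GGGCGG, either strand) was found in 17 of 38 (44.7%), against 35.7% of all 32851 promoters. That comparison set keeps every listed start of a gene, so it differs in unit from the members, here and for CpG below. A CCAAT box was in 13 (34.2%, against 37.4%), a TATA box in 5 (13.2%, against 13.6%), the E-box CACGTG in 6 (15.8%, against 7.15%), the nuclear receptor site AGGTCA in 5 (13.2%, against 16.3%) and the AP-1 site TGANTCA in 0 (against 7.81%). No motif contains the letters of another, and the E-box and the AP-1 site read the same on both strands.

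The density of CpG, given as observed over expected, had a median of 0.645 in the members, from 0.0667 to 1.12, and 0.384 in all promoters. It was 0.703 in the 13 higher members, 0.858 in the 3 lower, 0.840 in the 7 that did not pass and 0.408 in the 15 that were not tested. A GC box was in 8 of 13 higher members, 3 of 3 lower, 4 of 7 not passed and 2 of 15 not tested. Abcg5 had 0.245 and no GC box, and Abcb1b had 0.535 with a GC box. The promoters of Abcg4 and Abcd4 were not analysed here.

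**Figure D5:**
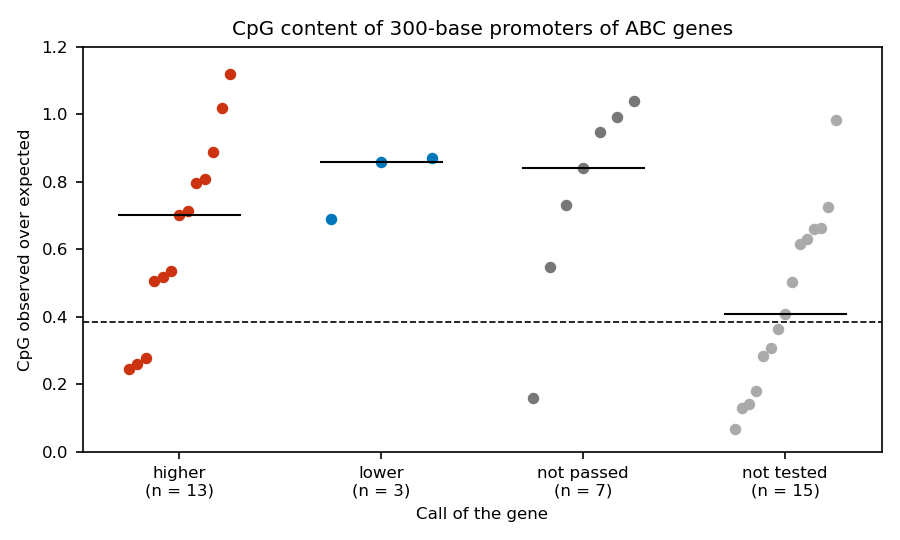
CpG observed over expected in the 300-base RefSeq promoters of 38 ABC genes, one dot per gene, by the call of the gene, with lines for group medians and a dashed line for the median of all promoters at 0.384. The medians of the higher, lower and not passed genes lie at 0.703, 0.858 and 0.840, above the dashed line, and that of the untested genes at 0.408.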

How the data were processed

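Total RNA was labelled with Cy3 and read on 4 Agilent 1-colour arrays (design 014868). The deposited scanner files hold linear intensity values that the authors' software, Agilent Feature Extraction 10.7.3.1 per the file headers, had background-subtracted; the submitters' processing notes name version 9.5. A deposited table holds log2 values, which differed from the scanner files' log2 processed signals by 1 constant on each array (0.275 to 0.362; column medians 6.16, 6.18, 6.35 and 6.35).

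Control spots and 60 to 71 outlier spots per array were left out, and log2 processed signals were set relative to each array's 75th percentile. Probes well above background on at least 2 arrays were kept, and the brightest stood for its gene. The group difference was fitted by limma 3.58.1 (R 4.3.3), with Benjamini-Hochberg adjustment over 17537 features and a threshold of 0.05; the fit was tested on simulated data. RefSeq names (GRCm38.p6) were found for 33636 of 41174 probes, and 7538 kept the file's name; probe coordinates are mm9, per the file headers. A gene not well above background in a group has only a bound: the brighter mean against the dim group's mean after raising each dim value to that array's lowest signal well above background.

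The members, lists and rules were chosen with earlier results of these data known. Values on every array are given for Abcg5, Abcb1b, their neighbours Abcg8 and Abcb1a, and members called with a log2 difference of at least 1 in size; up to 3 called genes with the largest difference were named from each list, and further genes were added with their values known. A few genes that these rules name are counted but not reported here. For 2 against 2 arrays the smallest two-sided p of an exact permutation test is 0.333, so p-values rest on the spread pooled over genes, measure only the spread between these arrays and may reflect technical spread. The number of arrays limits the precision. All arrays were on 1 slide with 1 scan day. Averages of probes spotted 10 times varied between arrays of a group by 4.73 (DMSO) and 4.58 times (4-hydroxytamoxifen) what the noise between spots gives. Each array was taken as a sample of its own, as in the labels; repeat labelling of the same RNA could give such a ratio too. Alternatives covered background correction (normexp, offset 50), quantile, median and spike-in scaling (7 probes), both filters on dim probes, the mean of probes, the deposited table, the replicate number as a block and leaving out each array.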

Additional observations from a re-analysis of the deposited data

How the results depend on the processing

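Counts of higher and lower members stayed within 1.5 times of the main ones under all 13 alternatives, at 11 to 17 higher and 5 to 10 lower. The deposited table, among these, repeats the main fit with 16 higher and 7 lower and is no separate check. Arrays with the same replicate number did not deviate together (correlation -0.0451), so the numbers were not taken as pairs, and with the replicate number as a block 14 members were higher and 6 lower. Leaving out 1 array gave 11 to 15 higher and 6 to 7 lower members. Over all features, the main fit called 40.5% higher and 29% lower. These shares were 32.9% and 37.5% under median scaling, 27.5% and 27.1% under spike-in scaling, and 38.3% and 31.5% under quantile normalization. With no filter on dim probes they were 23.3% and 14.7%. The mean of probes gave 38.4% and 29.4%, and the replicate block 37.5% and 25.8%. Median scaling gave 5 lower genes in the sterol list, 10 lower in the peroxisomal list and 1 lower macrophage or endothelial marker. Spike-in scaling gave 7 higher xenobiotic genes, 2 higher and 3 lower peroxisomal genes, 1 lower gene among the ABC proteins with other symbols and their partners, 4 lower translation genes and 1 lower macrophage or endothelial marker. Quantile normalization gave 1 lower macrophage or endothelial marker, and the mean of probes 1 higher translation gene. With no filter on dim probes, 3 peroxisomal genes, 5 haem and iron-sulphur genes, 1 gene among the ABC proteins with other symbols and their partners and 1 Sertoli or Leydig marker were lower, and the replicate block gave 1 lower in the list of ABC proteins with other symbols. Without 1 array, lower counts were 3 to 5 (peroxisomal), 5 to 6 (haem and iron-sulphur), 1 to 2 (ABC proteins with other symbols), 4 to 5 (translation), 0 to 1 (macrophage and endothelial) and 1 to 2 (Sertoli and Leydig).

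Signs turned for members near 0: under median scaling Abcb10 was at -0.06, Abcc4 at -0.16, Abcf1 at -0.10, Abcf2 at -0.17 and Abcg2 at -0.02. Under spike-in scaling Abcb10 was at -0.03, Abcc4 at -0.13, Abcf1 at -0.08 and Abcf2 at -0.14. With the mean of probes Abcc4 was at -0.01, Abcf1 at -0.15 and Abcf2 at -0.03. Without 1 array Abcc4 ranged from -0.04 to 0.08 and Abcf2 from -0.13 to 0.16. Abcd2 was at 0.68 with no filter, where another probe stood for it. The cause of the other changes was not tested. Signals near the background limit, as for Abcc9, Abcd2 and Abcb11, give only bounds or small differences.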
